A study of Rattus norvegicus with 48 samples.

Results

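Mitochondrial beta-oxidation is followed here through 10 genes of its core machinery: Cpt1a, Cpt2, Acadm, Acadl, Acadvl, Hadha, Hadhb, Acaa2, Etfa and Etfb. They were taken by gene symbol from the probe annotation of the array, with the brightest probe of each gene in the table before normalisation, and every gene had exactly 1 probe. All 10 lay among the 8223 named genes and 11558 features tested, and each was above background on all 48 arrays. The arrays, 1-colour bead arrays on which the brightness of a probe reports the RNA bound to it, held total RNA of male Fischer rat liver. They fell into 5 groups: 8 control livers, 10 preneoplastic nodules negative for keratin 19 (KRT-19-negative), 10 that were KRT-19-positive, and 10 each of the latter kind after 2 d or 4 d of T3 (triiodothyronine, the active thyroid hormone). Such nodules are built from changed hepatocytes and can precede liver cancer, and keratin 19 normally marks bile ducts and hepatic progenitors. Neither the T3 dose nor the way nodules were induced is in the labels. Nor do they say whether each sample is a different rat, so that p-values reflect sample-to-sample spread only, which may be technical.

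In beta-oxidation, long-chain fatty acids enter the mitochondrion as carnitine esters. Cpt1a on the outer membrane makes the ester and is the main point of control in liver, and Cpt2 on the inner membrane turns it back into an acyl-CoA. A chain-length-specific acyl-CoA dehydrogenase (Acadvl for very long, Acadl for long, Acadm for medium chains) then takes the first electrons, which the electron transfer flavoprotein (Etfa and Etfb) carries towards the respiratory chain. The trifunctional protein (Hadha and Hadhb) performs the remaining steps for long chains, the last cut included, and Acaa2 is a separate thiolase that cuts off acetyl-CoA. Thyroid hormone is known to raise fatty acid oxidation in liver, and Cpt1a is a known target of its receptor.

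Levels are log2 intensities after background correction and quantile normalisation. Differences come from a limma fit over all features and are given with their SE. A gene was called higher or lower at a Benjamini-Hochberg adjusted p under 0.05 over all features. The number of arrays limits the precision. Comparisons against control share the 8 control arrays, and the comparisons against nodules without T3 share the 10 KRT-19-positive arrays, so they are not independent of one another.

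Krt19, the gene that names the nodules, ranged from 5.67 to 7.94 (median 6.39) in control liver, from 6.06 to 10.09 (median 8.56) in KRT-19-negative nodules and from 11.03 to 12.73 (median 11.65) in KRT-19-positive nodules without T3. It ranged from 8.87 to 11.74 (median 10.40) after 2 d of T3 and from 7.47 to 8.77 (median 7.92) after 4 d. The untreated nodule groups did not overlap, whereas the arrays at 2 d overlapped the KRT-19-negative range and those at 4 d lay within it, so the treated groups are called KRT-19-positive by their labels. The deiodinase Dio1, a classical thyroid hormone target, ranged from 10.66 to 12.12 in KRT-19-positive nodules, from 13.61 to 14.14 after 2 d of T3 and from 14.50 to 14.78 after 4 d. The hepatocyte marker albumin (Alb) lay between 14.10 and 15.15 in control liver and both untreated nodule groups. That is close to the highest level of any probe, 15.27, which limits the change Alb could show. KRT-19-negative replicate 3 stood apart with a level of Gstp1, the placental glutathione transferase that marks preneoplastic rat hepatocytes, of 9.25 against a group median of 14.22. Among the arrays after 2 d of T3, replicate 2 had the lowest correlation with its own group, 0.974, where the others were at 0.981 or more. After 4 d of T3, replicate 1 was at 0.968 and replicate 3 at 0.973, where the others were at 0.980 or more. Without either of these last 2 arrays the calls of the 10 genes at 4 d were kept in the 3 comparisons they enter, with the exception that Etfb against no T3 gained a call without replicate 3. KRT-19-positive arrays without T3 had 9424 to 10695 probes detected above background (median 10493), against medians of 9218 in control, 9298 in KRT-19-negative nodules, 9540 after 2 d and 9789 after 4 d.

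Marker genes of other cell types moved with the groups as well. The summed intensity of the 6 measured cholangiocyte markers ranged from 1426 to 1882 in control, from 2279 to 4888 in KRT-19-negative and from 6408 to 13134 in KRT-19-positive nodules. It was 3439 to 7866 after 2 d of T3 and 1429 to 2564 after 4 d. The 8 stellate cell and fibroblast markers summed to 2466 to 3646, 3081 to 8156, 6904 to 13669, 7002 to 11098 and 3646 to 9083 in the same order of groups. The 8 hepatocyte markers summed to 133818 to 179941 in control, 160359 to 186227 in KRT-19-negative and 110546 to 176184 in KRT-19-positive nodules. Their sum was 140064 to 173725 after 2 d of T3 and 146795 to 162053 after 4 d. Against control, KRT-19-positive nodules had 3 of these 8 called lower and 1 called higher, with 5 of 6 cholangiocyte and 7 of 8 stellate cell and fibroblast markers called higher. In this comparison 24.8% of all features were higher and 23.9% lower. The 4 red blood cell markers summed to 17637 to 43778 in control, 5321 to 14025 in KRT-19-positive nodules and 17855 to 25972 after 4 d of T3. Of 9 macrophage markers, 4 were higher and 3 lower in these nodules than in control. After 4 d of T3, 1 was higher and 5 lower than without it (27.1% and 26.6% of all features). Of 9 lymphocyte markers 1 was higher and 1 lower, and of 3 endothelial markers none was called, in the nodules against control. Of the neutrophil list 1 gene was measured, and it was lower there (-0.73). In pieces of tissue, fewer cells of a type and less RNA per cell cannot be told apart, and the part of these cell types in the results below was not tested.

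Step by step over the groups, 4 of the 10 genes were called between control and KRT-19-negative nodules and 7 between control and KRT-19-positive nodules. T3 raised 7 of the 10 within 4 d, with 27.1% of all features higher and 26.6% lower, and these were not the same 7. Cpt2, Acadl and Hadhb were raised without a call in KRT-19-positive nodules against control, whereas Acaa2, Etfa and Etfb were called there and not raised. This split depends on the threshold, and the share of all features with such a split was not counted. With arrays scaled to their medians, Cpt2 (-0.50), Acadl (-0.64) and Hadhb (-0.47) were called lower in KRT-19-positive nodules. Etfa then lost its call there (0.10) and was called higher at 4 d of T3 (0.44). In KRT-19-negative nodules 1 of 10 genes was higher and 3 were lower than in control, while 11.2% of all features were higher and 10.7% lower. The KRT-19-positive kind had 2 genes higher and 5 lower than control, against 24.8% and 23.9% of all features. With arrays scaled to their medians, 26.27% of the features called there were higher, in place of 50.96%. In the quantile-normalised values the median difference of the 10 genes was -0.35, and that of all features was -0.03. Directly between both kinds of nodule, 2 genes were higher and 5 lower in the KRT-19-positive ones, where 17.3% and 14.7% of all features were called, with a median of -0.23 against -0.01.

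After 2 d of T3, 5 genes were higher and 2 lower than in KRT-19-positive nodules without T3, with 15.8% of all features higher and 15.5% lower. After 4 d, 7 were higher and 1 was lower, with 27.1% and 26.6% of all features. The median difference of the 10 genes went from 0.26 at 2 d to 0.49 at 4 d, where that of all features was 0.01 and 0.003. From 2 d to 4 d itself, 6 genes rose and 1 fell (22.4% and 22.1% of all features). Against control liver, 3 genes were higher and 3 lower after 2 d (24.8% and 22.6% of all features), and 7 were higher and 2 lower after 4 d (21.7% and 20.3%). Median scaling turned the split at 2 d into 2 higher and 5 lower. After 4 d the median of the 10 genes lay 0.46 above control on the log2 scale. No control liver with T3 is among the groups. Between treated nodules and control, here and below, the nodule and the hormone therefore cannot be told apart.

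**Figure D1:**
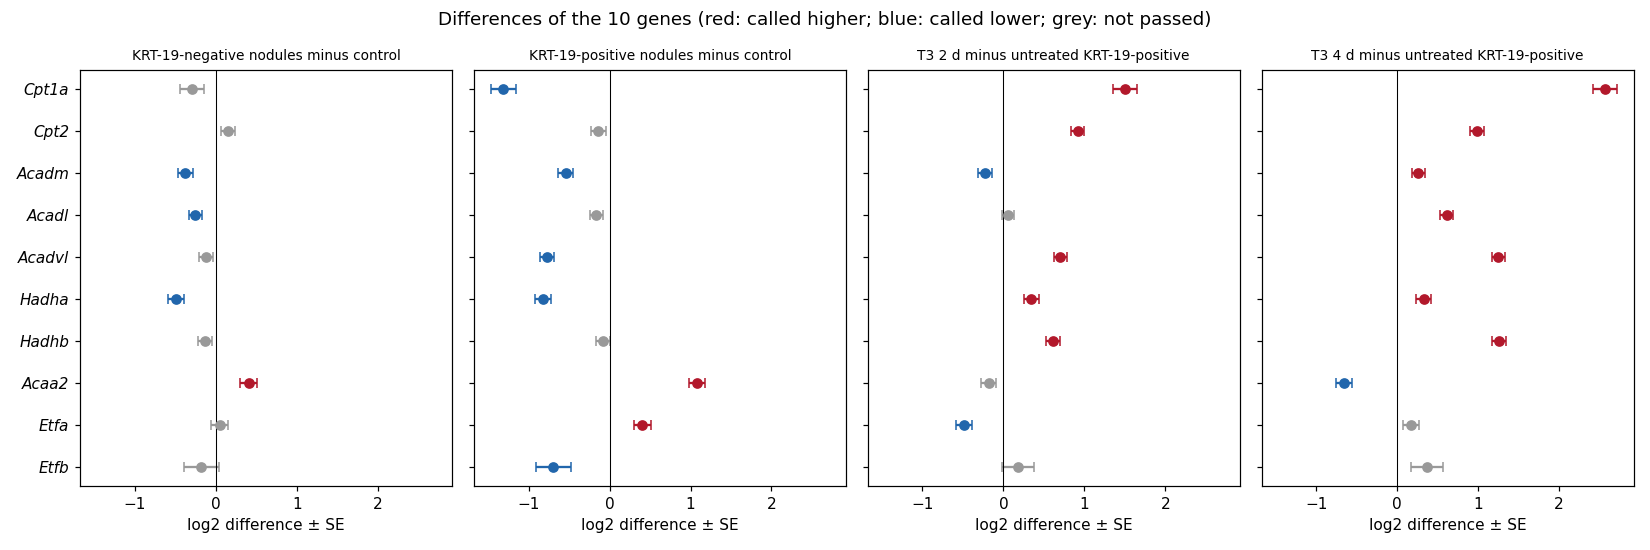
Log2 difference with its SE (horizontal axis) of the 10 genes (vertical axis) in 4 comparisons, coloured by the limma call. Cpt1a is the farthest left in KRT-19-positive nodules (-1.31) and the farthest right after 4 d of T3 (2.56), while Acaa2 lies on the opposite side of 0 (1.08 and -0.66).

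Cpt1a, the carnitine palmitoyltransferase of the outer membrane, had the largest changes of the 10 genes in KRT-19-positive nodules and under T3. Its level ranged from 11.19 to 12.22 (median 11.73) in control, from 10.98 to 11.76 (median 11.59) in KRT-19-negative nodules and from 10.00 to 10.90 (median 10.48) in KRT-19-positive nodules. After T3 it ranged from 11.29 to 13.00 (median 11.90) at 2 d and from 12.42 to 13.37 (median 13.15) at 4 d. Every KRT-19-positive array without T3 lay below every array of the other 4 groups, and every array at 4 d lay above every control array. Cpt1a was 2.49-fold lower than control in KRT-19-positive nodules (-1.31 ± 0.15, adjusted p = 3.51e-10). The difference between KRT-19-negative nodules and control did not pass (-0.29 ± 0.15, adjusted p = 0.176), and that between the nodule types did (-1.02 ± 0.14, adjusted p = 1.91e-07).

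T3 raised Cpt1a 2.83-fold within 2 d (adjusted p = 1.07e-11) and 5.91-fold within 4 d (2.56 ± 0.14, adjusted p = 1.13e-20). The step from 2 d to 4 d was itself called (1.06 ± 0.14, adjusted p = 2.8e-08). At 2 d the level did not differ from control by the test (0.19 ± 0.15, adjusted p = 0.337), and at 4 d it exceeded control (1.25 ± 0.15, adjusted p = 2.44e-09). The highest array at 2 d was replicate 2, and without it the rise at 2 d was 1.38.

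Cpt2, the partner of Cpt1a on the inner membrane, followed another course. It ranged from 11.45 to 12.03 (median 11.76) in control, from 11.54 to 12.19 (median 11.90) in KRT-19-negative and from 11.23 to 11.85 (median 11.65) in KRT-19-positive nodules. It ranged from 12.32 to 12.69 (median 12.50) after 2 d of T3 and from 12.31 to 12.73 (median 12.59) after 4 d. The ranges of control and both nodule groups overlapped, and every array after T3 lay above every array without it.

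KRT-19-positive nodules did not differ from control in Cpt2 by the test (-0.14 ± 0.09, adjusted p = 0.194), although scaling each array to its median alone gave a called fall of 0.50. Cpt2 was called lower than in KRT-19-negative nodules (-0.29 ± 0.08, adjusted p = 0.0046), but not with the number of detected probes in the fit (-0.17). Its rise was 0.92 ± 0.08 at 2 d (adjusted p = 1.29e-12) and 0.99 ± 0.08 at 4 d (adjusted p = 1.13e-14). The difference between 2 d and 4 d was 0.07 ± 0.08 and did not pass (adjusted p = 0.544), though it was called with median scaling (0.28).

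**Figure D2:**
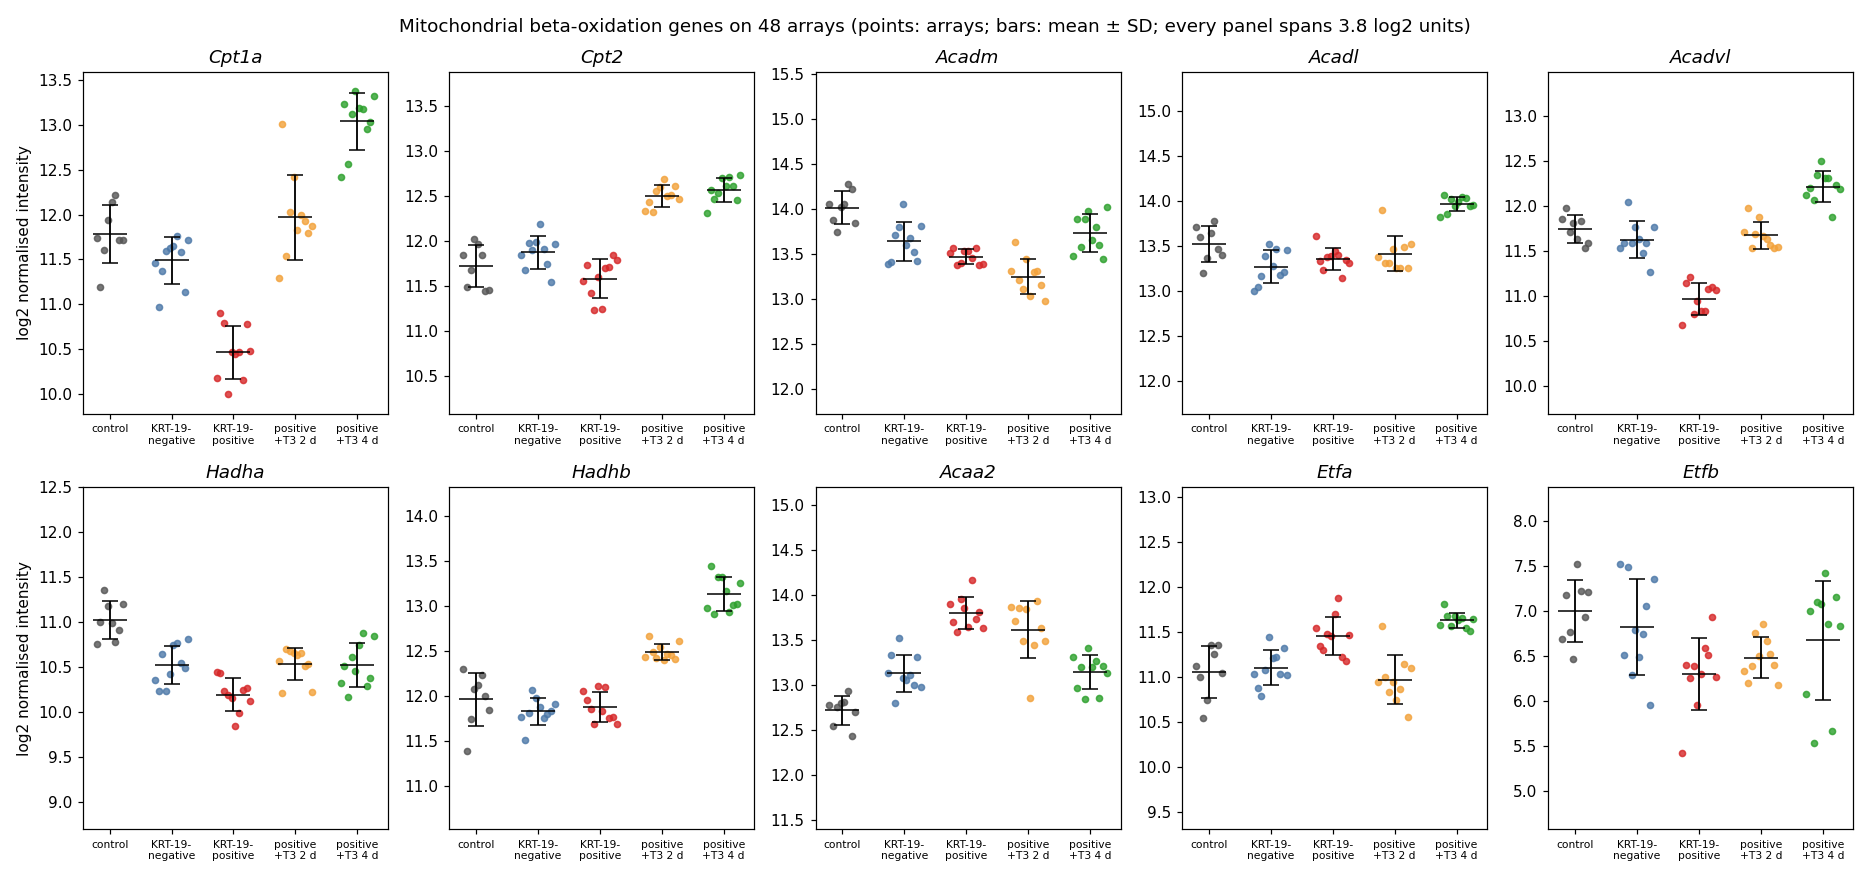
Log2 normalised intensity (vertical axes, each spanning the same number of log2 units) of the 10 genes on each array, by group, with the mean and SD. Cpt1a falls to a median of 10.48 in KRT-19-positive nodules and reaches 13.15 after 4 d of T3, and Acaa2 rises from 12.77 in control to 13.78 and returns to 13.21.

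Acadvl, the dehydrogenase of very long chains, changed in the same direction as Cpt1a from each group to the next, with a smaller size. It ranged from 11.54 to 11.98 (median 11.76) in control, from 11.27 to 12.05 (median 11.59) in KRT-19-negative nodules and from 10.68 to 11.21 (median 11.01) in KRT-19-positive nodules. After T3 it ranged from 11.54 to 11.98 (median 11.65) at 2 d and from 11.88 to 12.50 (median 12.22) at 4 d. The KRT-19-positive arrays without T3 again lay below every other array.

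Acadvl was 1.71-fold lower than control in KRT-19-positive nodules (-0.78 ± 0.08, adjusted p = 4.44e-11). It rose by 0.70 ± 0.08 within 2 d of T3 (adjusted p = 1.13e-09) and by 1.25 ± 0.08 within 4 d, or 2.37-fold (adjusted p = 9.33e-19). At 2 d Acadvl did not differ from control by the test (-0.07 ± 0.08, adjusted p = 0.512), though it was called lower with median scaling (-0.34). At 4 d it lay 0.47 ± 0.08 above control (adjusted p = 7.82e-06). The region before its start is shown because it held the letters AGGTCA, the hexamer that nuclear receptors such as those for thyroid hormone recognise, at 2 places, marked by capitals (RefSeq, GRCr8, minus strand, chr10:55236656-55236955).
Acadvl promoter: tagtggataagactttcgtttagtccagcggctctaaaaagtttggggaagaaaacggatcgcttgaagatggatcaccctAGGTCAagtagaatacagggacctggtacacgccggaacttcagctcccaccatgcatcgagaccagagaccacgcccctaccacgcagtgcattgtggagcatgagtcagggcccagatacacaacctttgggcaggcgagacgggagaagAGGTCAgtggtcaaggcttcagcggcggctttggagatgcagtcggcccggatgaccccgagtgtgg

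Acadl, the dehydrogenase of long chains, was called under T3 at 4 d and not at 2 d. It ranged from 13.21 to 13.78 (median 13.54) in control, from 13.01 to 13.53 (median 13.25) in KRT-19-negative and from 13.14 to 13.61 (median 13.37) in KRT-19-positive nodules. It ranged from 13.26 to 13.90 (median 13.35) after 2 d of T3 and from 13.82 to 14.07 (median 13.97) after 4 d. Only the arrays at 4 d lay apart, above every array of control and of nodules without T3, and overlapped those at 2 d through replicate 2.

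Acadl did not pass at 2 d (0.06 ± 0.08, adjusted p = 0.606) and rose by 0.61 ± 0.08 within 4 d (adjusted p = 1.61e-09), and from 2 d to 4 d it rose by 0.55 ± 0.08 (adjusted p = 3.5e-08). Without replicate 2 the difference at 2 d was 0.003. Its fall in KRT-19-negative nodules (-0.25 ± 0.08, adjusted p = 0.0187) lost the call without control replicate 1 (-0.22, adjusted p = 0.05) or control replicate 6 (-0.22, adjusted p = 0.0542), and in a fit of only the compared groups (adjusted p = 0.0863). In KRT-19-positive nodules the difference did not pass (-0.16 ± 0.08, adjusted p = 0.0875), and it was called without KRT-19-positive replicate 1 (-0.19) or control replicate 3 (-0.21). It was also called with cyclic loess (-0.22), median scaling (-0.64), array weights (-0.17) and the detected probes in the fit (-0.28). At 4 d Acadl was 0.45 ± 0.08 above control (adjusted p = 9.63e-06), a call lost when arrays were scaled to their medians (0.11, adjusted p = 0.42).

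Acadm, the dehydrogenase of medium chains, was lower than in control in all 4 nodule groups. It ranged from 13.75 to 14.28 (median 14.05) in control, from 13.40 to 14.06 (median 13.64) in KRT-19-negative and from 13.38 to 13.57 (median 13.49) in KRT-19-positive nodules. After T3 it ranged from 12.98 to 13.63 (median 13.26) at 2 d and from 13.45 to 14.03 (median 13.73) at 4 d. Control arrays lay above every KRT-19-positive array and every array at 2 d, and overlapped those at 4 d.

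The fall of Acadm was 0.37 in KRT-19-negative nodules (SE 0.09, adjusted p = 0.00137) and 0.54 in KRT-19-positive nodules (SE 0.09, adjusted p = 1.1e-06). At 2 d of T3 it fell further, by 0.22 (SE 0.08, adjusted p = 0.0359), and this call was lost when any of 10 arrays was left out. Those were KRT-19-positive replicates 1, 2, 5, 6 and 8 and replicates 3, 4, 6, 9 and 10 after 2 d, with values from -0.22 to -0.19 and adjusted p up to 0.08. It was also lost with median scaling (-0.17, adjusted p = 0.198), with no filter on dim probes (adjusted p = 0.0606) and with the detected probes in the fit (adjusted p = 0.059). From 2 d to 4 d Acadm rose by 0.49 ± 0.08 (adjusted p = 3.89e-06), and at 4 d it remained 0.28 ± 0.09 below control (-0.28, adjusted p = 0.00879). Its difference between 4 d and no T3, 0.26 ± 0.08 (adjusted p = 0.00754), was not called with cyclic loess normalisation (0.13, adjusted p = 0.199).

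Hadha and Hadhb encode the alpha and beta subunits of the trifunctional protein, which work as 1 complex, yet their RNA levels moved apart. Hadha ranged from 10.76 to 11.35 (median 10.99) in control, from 10.24 to 10.81 (median 10.52) in KRT-19-negative and from 9.85 to 10.45 (median 10.21) in KRT-19-positive nodules. It ranged from 10.22 to 10.70 (median 10.60) after 2 d of T3 and from 10.17 to 10.89 (median 10.48) after 4 d. Control arrays lay above all KRT-19-positive arrays without T3 and above all arrays at 2 d.

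Hadha fell in KRT-19-negative nodules (-0.49 ± 0.10, adjusted p = 0.000146) and in KRT-19-positive nodules (-0.83 ± 0.10, adjusted p = 5.92e-10). T3 raised it by 0.34 ± 0.09 at 2 d (adjusted p = 0.00347) and by 0.33 ± 0.09 at 4 d (adjusted p = 0.00251). The difference between 2 d and 4 d did not pass (-0.02 ± 0.09, adjusted p = 0.911) and had no settled sign over the alternatives. At 4 d Hadha was still below control (-0.50 ± 0.10, adjusted p = 4.04e-05).

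Hadhb ranged from 11.40 to 12.30 (median 12.04) in control, from 11.52 to 12.07 (median 11.82) in KRT-19-negative and from 11.69 to 12.11 (median 11.85) in KRT-19-positive nodules. It ranged from 12.40 to 12.67 (median 12.46) after 2 d of T3 and from 12.91 to 13.45 (median 13.10) after 4 d. The 3 groups without T3 overlapped, the arrays at 2 d lay above all of them, and those at 4 d lay above all at 2 d.

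Hadhb did not pass in KRT-19-positive nodules against control (-0.08 ± 0.09, adjusted p = 0.453), though it was called lower there with median scaling (-0.47). It rose by 0.61 ± 0.08 at 2 d (adjusted p = 1.15e-07) and by 1.26 ± 0.08 at 4 d, or 2.39-fold (adjusted p = 4.69e-18). At 4 d it was 1.17 ± 0.09 above control (adjusted p = 9.69e-16).

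The log2 ratio of Hadhb to Hadha on each array, set relative to its mean in control, describes the divergence. It averaged 0.36 ± 0.24 (SD, n = 10) in KRT-19-negative nodules, 0.74 ± 0.23 in KRT-19-positive nodules, 1.01 ± 0.26 after 2 d of T3 and 1.67 ± 0.26 after 4 d, against an SD of 0.44 in control. The lowest array at 4 d, at 1.10, lay above the highest control array, at 0.60. This ratio was formed after the levels were seen and is given without a test.

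**Figure D3:**
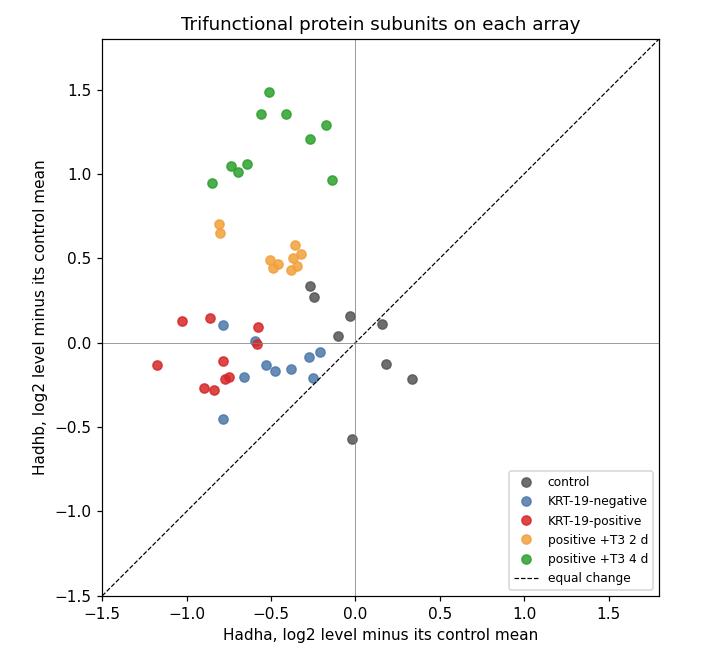
Hadhb (vertical axis) against Hadha (horizontal axis) on each of 48 arrays, both as log2 level minus the mean of control, with a dashed line of equal change. From KRT-19-positive nodules to 4 d of T3 the points move mainly upwards, since Hadhb rose by 1.26 and Hadha by 0.33.

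Hadha and Hadhb lie head to head on rat chromosome 6, Hadha on the plus and Hadhb on the minus strand, and their RefSeq promoter windows (250 bases before to 50 after the start) share 200 bases. The start used for the Hadhb window lies 57 bases inside the end given by the RefSeq gene table, so the shared stretch depends on which start is taken. Windows of head-to-head genes overlapped for 1111 genes, 3.32% of those listed. The shared bases are shown because both genes have this stretch in their windows and moved unequally. They held 1 GC box (GGGCGG, read here on the minus strand and marked by capitals), no CCAAT and no AGGTCA on either strand (RefSeq, GRCr8, plus strand, chr6:31907551-31907750).
Hadha and Hadhb, shared bases: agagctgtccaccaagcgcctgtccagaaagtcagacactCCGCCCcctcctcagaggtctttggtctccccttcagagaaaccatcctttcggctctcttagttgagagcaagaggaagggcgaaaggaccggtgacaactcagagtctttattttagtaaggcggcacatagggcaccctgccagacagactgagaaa

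Acaa2, a mitochondrial thiolase of the last step, went against the direction of most other called genes in KRT-19-positive nodules and at 4 d of T3. It ranged from 12.44 to 12.94 (median 12.77) in control, from 12.80 to 13.52 (median 13.10) in KRT-19-negative and from 13.59 to 14.17 (median 13.78) in KRT-19-positive nodules. After T3 it ranged from 12.86 to 13.94 (median 13.68) at 2 d and from 12.85 to 13.42 (median 13.21) at 4 d. All KRT-19-positive arrays without T3 lay above all arrays of control, of KRT-19-negative nodules and of 4 d of T3.

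Acaa2 rose by 0.41 ± 0.10 in KRT-19-negative nodules (adjusted p = 0.00271) and by 1.08 ± 0.10 in KRT-19-positive nodules, or 2.11-fold (adjusted p = 1.37e-12). The nodule types differed by 0.67 ± 0.10 (adjusted p = 3.53e-07). At 2 d of T3 the difference did not pass (-0.18 ± 0.10, adjusted p = 0.151), though it was called lower with cyclic loess normalisation (-0.33). At 4 d Acaa2 was 1.58-fold lower than without T3 (-0.66 ± 0.10, adjusted p = 1.29e-07) and 0.42 ± 0.10 above control (adjusted p = 0.00078).

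Etfa, the alpha subunit of the electron transfer flavoprotein, rose in KRT-19-positive nodules, fell at 2 d of T3 and rose from 2 d to 4 d. It ranged from 10.54 to 11.36 (median 11.09) in control, from 10.79 to 11.44 (median 11.06) in KRT-19-negative and from 11.17 to 11.88 (median 11.46) in KRT-19-positive nodules. It ranged from 10.55 to 11.57 (median 10.94) after 2 d of T3 and from 11.51 to 11.81 (median 11.64) after 4 d. The arrays at 4 d lay above every control array, and those at 2 d overlapped control.

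The rise of Etfa in KRT-19-positive nodules was 0.40 ± 0.10 (adjusted p = 0.000985). The call was lost with median scaling (0.10, adjusted p = 0.476) and with the number of detected probes in the fit (0.25, adjusted p = 0.0809). At 2 d of T3 Etfa fell by 0.49 (SE 0.10, adjusted p = 1e-04), and by 0.55 without replicate 2, its highest array. From 2 d to 4 d it rose by 0.66 ± 0.10 (adjusted p = 1.64e-07). At 4 d it differed from nodules without T3 by 0.17 ± 0.10, which did not pass (adjusted p = 0.132) but was called with median scaling (0.44), array weights (0.19) and the detected probes in the fit (0.25). It lay 0.58 ± 0.10 above control (adjusted p = 8.56e-06).

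Etfb, the beta subunit, had the dimmest probe, with a mean raw intensity of 207. Its SD was the widest of the 10 genes in each group except after 2 d of T3, where it was 0.23. It ranged from 6.47 to 7.53 (median 7.06) in control, from 5.95 to 7.53 (median 6.77) in KRT-19-negative and from 5.43 to 6.94 (median 6.35) in KRT-19-positive nodules. It ranged from 6.18 to 6.86 (median 6.45) after 2 d of T3 and from 5.53 to 7.43 (median 6.93) after 4 d. All 5 groups overlapped.

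Etfb was lower than control in KRT-19-positive nodules (-0.69 ± 0.21, adjusted p = 0.00558), a call lost with the detected probes in the fit (-0.17). Its difference from KRT-19-negative nodules (-0.52 ± 0.20, adjusted p = 0.042) lost the call without any of 9 arrays, with values from -0.52 to -0.42. These were KRT-19-positive replicates 1, 3, 5, 6 and 10 and KRT-19-negative replicates 1, 3, 8 and 10. That call was also lost with no filter on dim probes (adjusted p = 0.0659), the replicate block (adjusted p = 0.059) and the detected probes in the fit (adjusted p = 0.814). T3 gave no called change in Etfb (0.18 ± 0.20 at 2 d, adjusted p = 0.537, and 0.37 ± 0.20 at 4 d, adjusted p = 0.118), but that at 4 d was called without replicate 3 (0.50) or replicate 8 (0.48) of that group and with array weights (0.57).
Against control, Etfb at 2 d was called lower (-0.52 ± 0.21, adjusted p = 0.0413), and not without any of replicates 1, 2, 3, 9 and 10 at 2 d or 2, 5, 6 and 8 of control (-0.51 to -0.44). It was also not called under 6 of 13 other settings (cyclic loess, median scaling, no filter on dim probes, the replicate block, array weights and the detected probes in the fit), with adjusted p up to 0.104.

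RefSeq promoter windows were found for 8 of the 10 genes, the exceptions being Acadl and Acaa2, and 6 motifs were searched on both strands. The start used for a window differed from the end of the gene in the RefSeq gene table by 2279 bases for Cpt1a, 529 for Cpt2, 81 for Acadvl and 57 for Hadhb, and by none for the other 4. The hexamer AGGTCA was in 2 of the 8 windows, those of Acadvl and Hadhb, and in 16.2% of 33469 rat windows. Direct repeats of this hexamer spaced by 1 or by 4 bases of any kind, each of which contains it, were in none of the 8 and in 0.0538% and 0.00598% of all windows. The GC box GGGCGG was in 5 of 8 windows (Cpt2, Acadm, Hadha, Hadhb and Etfb) and in 33.1% of all. CCAAT was in 3 of 8 (Hadha, Etfa and Etfb) against 37.5%, and TATAAA in none of 8 against 14.2%. A match is a run of letters only, and the absence of one speaks only of this window.

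The wider pathway was described with lists of related genes. In KRT-19-positive nodules against control, 24.8% of all features were higher and 23.9% lower. After 4 d of T3 against no T3, 27.1% were higher and 26.6% lower. Beside the members, 4 carnitine carriers and acyltransferases were measured, and all 4 were lower than control in KRT-19-positive nodules (median -1.05) and 3 were higher after 4 d of T3 than without it (median 1.96). The carnitine uptake carrier Slc22a5 went from -0.86 ± 0.14 against control in these nodules to 2.51 ± 0.13 against them after 4 d (adjusted p = 1.58e-21). The peroxisomal carnitine octanoyltransferase Crot was lower in the nodules (-2.55 ± 0.23), did not pass at 2 d (0.07 ± 0.22, adjusted p = 0.845) and rose by 2.15 ± 0.22 within 4 d. Slc25a20, the carrier that moves acylcarnitines across the inner membrane, was raised at 2 d (0.91 ± 0.14) but did not pass at 4 d (0.17 ± 0.14, adjusted p = 0.315). Its fall in KRT-19-positive nodules (-0.42 ± 0.15) was not called with the detected probes in the fit (-0.004, adjusted p = 0.986).

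Of 16 measured genes of other mitochondrial acyl-CoA oxidation steps, 14 were lower than control and 1 was higher in KRT-19-positive nodules (median -0.54). Of all features, 23.9% were lower and 24.8% higher there. After 4 d of T3, 12 were higher and 1 was lower than without it (median 0.65), with 27.1% and 26.6% of all features. At 2 d only 6 were higher and 1 lower (15.8% and 15.5% of all features), with a median of -0.003. Hadh, the short-chain 3-hydroxyacyl-CoA dehydrogenase, fell by 1.32 in the nodules, did not pass at 2 d of T3 (adjusted p = 1) and rose by 0.71 ± 0.10 within 4 d. The isomerase Eci1 had already risen by 1.10 ± 0.10 at 2 d and stood at 1.06 ± 0.10 at 4 d. Etfdh, which passes the electrons of Etfa and Etfb to ubiquinone, fell by 0.88 in the nodules and rose by 0.51 ± 0.09 within 2 d of T3. The exception in both comparisons was Acad9, an acyl-CoA dehydrogenase also known as an assembly factor of respiratory complex I. It was 1.35 ± 0.12 higher than control in KRT-19-positive nodules and lower by 1.23 after 4 d of T3 (-1.23 ± 0.11, adjusted p = 2.45e-13), as Acaa2 was.

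Of 14 measured genes of peroxisomal oxidation, 13 were lower than control and none was higher in KRT-19-positive nodules (median -1.07). Of all features, 23.9% were lower and 24.8% higher there. After 4 d of T3, 10 were higher and none was lower than without it (median 0.70), with 27.1% and 26.6% of all features. The peroxisome proliferation factor Pex11a rose by 2.37 ± 0.19 and the reductase Decr2 by 1.84 ± 0.12. Acox2, the oxidase of branched chains and bile acid precursors, did not pass at 4 d (0.37 ± 0.17, adjusted p = 0.0668) after a fall of 0.68 at 2 d.

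Acyl-CoA synthesis, the step before carnitine transfer, was mixed in KRT-19-positive nodules, where 3 of 7 measured genes were above control and 3 below. Of all features, 24.8% were higher and 23.9% lower in this comparison. The long-chain synthetases Acsl1 and Acsl5 were lower there (-1.63 ± 0.13 and -1.64 ± 0.12) and rose by 1.08 ± 0.13 and 1.22 ± 0.11 within 4 d of T3. The list as a whole did not rise under T3. At 2 d none of the 7 was higher and 4 were lower than without T3 (median -0.32), with 15.8% and 15.5% of all features. At 4 d 2 were higher and 3 lower (median -0.16), with 27.1% and 26.6% of all features. The 3 lower ones, Acsl3, Acsl4 and Acsm1, each lost the call under at least 1 other setting. The medium-chain synthetase Acsm2 was higher in the nodules (2.96 ± 0.20) and still 2.54 ± 0.20 above control after 4 d. Of the ketone body list only Bdh1, the 3-hydroxybutyrate dehydrogenase, was measured. It was lower in KRT-19-positive nodules (-1.32 ± 0.11) and rose by 0.67 ± 0.10 within 4 d of T3.

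Among 16 measured regulators, 10 were lower than control and 1 was higher in KRT-19-positive nodules (23.9% and 24.8% of all features). After 4 d of T3, 11 were higher and 1 was lower than without it (27.1% and 26.6% of all features). Pdk4, the kinase that turns off pyruvate dehydrogenase when fat is burnt, differed from control by -2.71 ± 0.19 in the nodules. After 4 d of T3 it differed from nodules without T3 by 3.01 ± 0.18 (adjusted p = 1.44e-19). Acaca, an enzyme that makes malonyl-CoA, an inhibitor of Cpt1a, rose by 2.28 ± 0.23 within 4 d. Acacb, also in this list, was not measured. The malonyl-CoA decarboxylase Mlycd, of the list of other mitochondrial steps, rose by 1.42 ± 0.10. The coactivator Ppargc1a lay 0.93 ± 0.13 above control at 4 d (adjusted p = 2.64e-08). Pparg went against the others, higher in the nodules (0.63 ± 0.18) and lower after 4 d (-0.73 ± 0.17), though neither was called with median scaling.

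Genes of mitochondrial structure and respiration were a separate list. Of 16 measured, 6 were higher than control and 1 was lower in KRT-19-positive nodules (median 0.09), although median scaling gave 4 higher and 7 lower. In this comparison 24.8% of all features were higher and 23.9% lower. After 4 d of T3, 14 of 16 were higher than control and none was lower (median 0.69), with 21.7% and 20.3% of all features. Among them were cytochrome c (Cycs, 1.31 ± 0.08), citrate synthase (Cs, 1.19 ± 0.14) and the complex I subunit Ndufs1 (1.07 ± 0.10). Vdac1, Cox4i1, Sdhb and Atp5f1b lost this call with median scaling, and Cox4i1 also with cyclic loess. Against nodules without T3, 9 were higher and 1 was lower at 4 d (median 0.33), with 27.1% and 26.6% of all features.

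**Figure D4:**
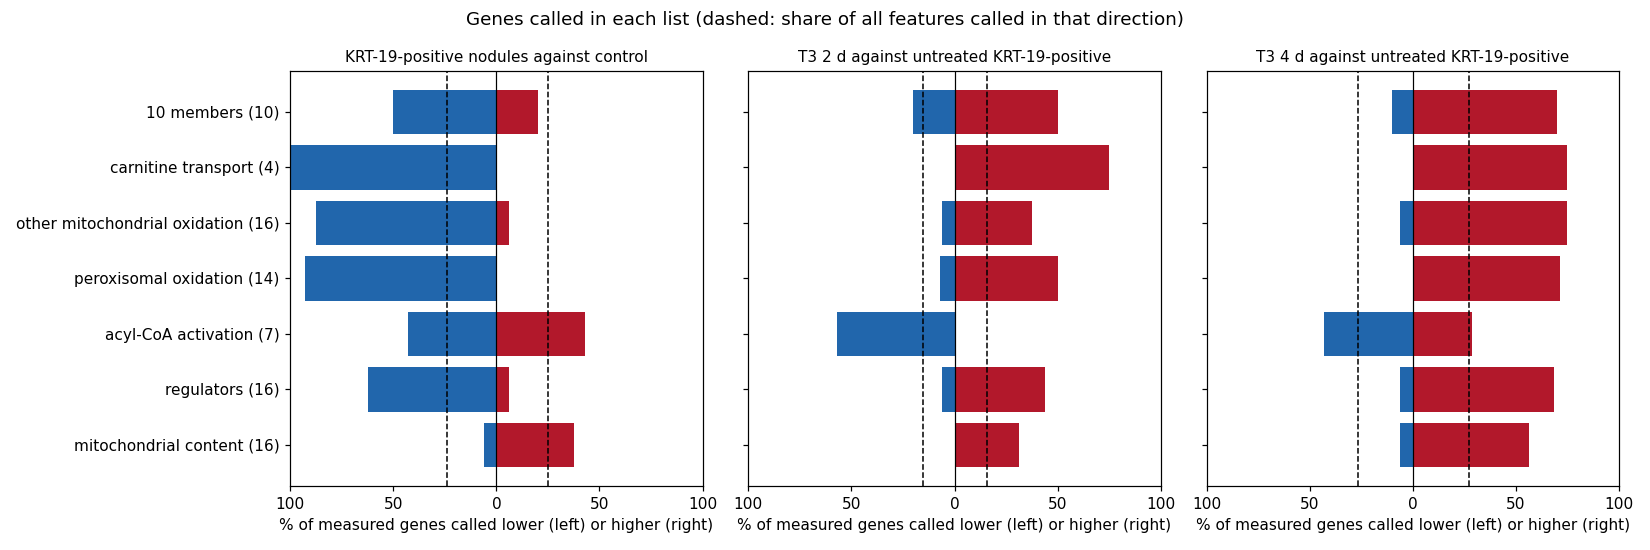
Share of measured genes called higher (right, red) or lower (left, blue) in each list (vertical axis, with the number measured) in 3 comparisons, with dashed lines at the share of all features called in that direction. In the oxidation lists the blue bars of KRT-19-positive nodules give way to red bars at 4 d of T3, where 12 of 16 other mitochondrial and 10 of 14 peroxisomal genes were higher.

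The genes with the most similar course over the 48 arrays were found by the root mean square difference of log2 levels, each set relative to its control mean, among 8218 named features. For Cpt1a these were Tmem135 (0.32), Lgr4 (0.36) and Lactb2 (0.40), where Cpt1a itself departed from its control mean by 0.90. For Acaa2 they were Akr1a1 (0.21), C1qbp (0.24) and Cct5 (0.24), against a departure of 0.73 of its own. For Etfa they were Anxa11 (0.21), Zc3h14 (0.21) and the complex III subunit Uqcrc1 (0.22), against 0.39.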

How the data were processed

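The 48 samples of total RNA comprised, per the labels, 8 control livers and 4 groups of 10 nodules. The deposited table before normalisation holds, per the file headers, a linear intensity and a detection p-value for each probe and array. BeadStudio 3.0.19.0 is named per the submitters' processing notes. The deposited value table, used as an alternative, holds intensities that the authors quantile normalised, as read from the values. Any build or annotation used by the authors was not given in the sources used here. Of 22523 probes, 13793 carried 1 gene symbol, 8730 none and none several.

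The neqc function of limma 3.58.1 (R 4.3.3) made the log2 values: normexp background correction based on detection p-values, an added offset of 16, and quantile normalisation. A probe stayed in, as 11723 did, when at least 8 arrays had it below a detection p of 0.05, and the brightest per gene was used. The limma fit had 1 coefficient per group, trended variances and 8 contrasts, with Benjamini-Hochberg adjustment over 11558 features. The procedure was tested on simulated data. Between 8380 and 10695 probes per array were detected, and raw medians were 93 to 198.

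The 10 genes and all gene lists were chosen with earlier results of these data known. All 10 genes are named in the text. Of each list, up to 4 called genes with the largest change per comparison and those against its direction are named, with the values of a named gene in other comparisons. Lists of macrophage, endothelial, lymphocyte, neutrophil and red blood cell markers were also measured.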

Additional observations from a re-analysis of the deposited data

Results flagged for a closer look

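Among 50 sets of a gene in a group, 2 held an array far from the others of its group, and chance alone gives about 1 such array in 20 sets. Acadl in replicate 2 after 2 d of T3 was at 13.904 on the log2 scale, with the next array at 13.52. This array also held the highest Cpt1a, Acadm, Acadvl, Hadhb and Etfa and the lowest Hadha of its group, and it had the lowest correlation with its group. Acaa2 in replicate 6 after 2 d of T3 was at 12.865, with the next array at 13.45. Without that array the difference of Acaa2 from nodules without T3 was -0.10 (limma adjusted p = 0.419), compared with -0.18 with it.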

How the results depend on the processing

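The 80 differences of the 10 genes were recomputed under 13 alternatives each. Of these values 990 kept direction and call, 22 lost the call, 17 gained it and 11 changed sign. Leaving out each array in turn gave 1480 kept, 30 lost, 4 gained and 6 of changed sign. The falls of Cpt1a, Acadm, Acadvl and Hadha and the rise of Acaa2 in KRT-19-positive nodules against control kept their calls under all of them. So did the rises of Cpt1a, Cpt2, Acadvl, Hadha and Hadhb at both T3 times against no T3. Against no T3 the fall of Etfa at 2 d and, at 4 d, the rise of Acadl and the fall of Acaa2 were kept as well. The cause of the changes below was not tested.

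Scaling each array to its median moved the median of all features by -0.28 (KRT-19-positive nodules against control), -0.20 (against KRT-19-negative nodules), 0.18 (2 d of T3) and 0.27 (4 d). The share of calls that were higher became 26.27%, 24.75%, 75.12% and 70.16%, from 50.96%, 54.13%, 50.44% and 50.45%, and in KRT-19-negative nodules against control 40.58% from 51.22%. Features called rose from 3704 to 5672 between the nodule types and from 3620 to 5595 at 2 d. Under this scaling Etfa in KRT-19-negative nodules was -0.062, Acadl and Hadhb between the nodule types were each -0.19, Hadha from 2 d to 4 d was 0.14 and Cpt1a at 2 d against control was -0.087. With the detected probes in the fit, 4 members in place of 7 were called between the nodule types. Cpt2 in KRT-19-positive nodules was then 0.0049, Acadl between the nodule types -0.0059 and Etfb at 2 d -0.19. Cyclic loess gave -0.10 for Acadl at 2 d and 0.014 for Hadha from 2 d to 4 d, and array weights gave 0.0053 for the latter. A fit of only the compared groups called 1686 features in place of 2534 in KRT-19-negative nodules. Leaving out arrays, Etfa in KRT-19-negative nodules ranged from -0.022 to 0.095, and Hadha from 2 d to 4 d from -0.056 to 0.023. Of the values that changed sign in these ways, none had been or became called.

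Replicate numbers of the titles were not taken to pair samples, since not every same-numbered pair correlated above 0.1 (19 of 92 did, range -0.43 to 0.34). Such pairs were unevenly spread: 7 of 10 between 2 d and 4 d of T3 (median 0.12, against -0.03 for other pairs) and 5 of 8 between control and KRT-19-negative nodules (median 0.20 against -0.008), but 0 to 2 in each other pair of groups. With the replicate block, Etfb lost its call between the nodule types (-0.52, adjusted p = 0.059) and at 2 d against control (-0.53, adjusted p = 0.0528). A chip block and other probes of the members were not run, as the headers name no chip and each gene has 1 probe. The dim probe of Etfb limits what could be detected for it.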
